A study of Mus musculus with 36 samples.

Results

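Rod photoreceptors isolated from mouse retina at postnatal day 28 (P28, n = 4) were compared with rods isolated at postnatal day 14 (P14, n = 3). These were 7 of 36 listed samples, 33 of which had a column in the deposited table. The study turned fibroblasts into photoreceptor-like cells with chemicals and used rods of several ages as its reference. All 7 libraries came from the Nrl-GFP strain, in which a fluorescent reporter is driven by the promoter of the rod gene Nrl, and the cells were sorted on that reporter, so a sorted cell is one with an active Nrl promoter rather than one shown to be a rod by other means. No deletion or treatment of the rods is named in the labels. The rods were reused from an older series, except that the labels list no older sample for P14 replicate 3. The repeat of each comparison without that library is therefore also the comparison within 1 source. Values are the authors' normalized CPM, a read abundance per gene scaled for library size, and differences are given as log2(CPM + 1), P28 minus P14. A gene was called higher or lower where limma gave an adjusted p under 0.05 and a difference of at least 2-fold. Whether replicates were separate animals is not said in the labels, and p-values then measure spread among samples only, possibly technical spread.

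A rod catches light in a stack of membrane discs, the outer segment, where light turns on transducin, transducin turns on a phosphodiesterase, and the fall in cyclic GMP closes a cation channel. Mouse eyes open near the earlier of these ages, and the outer segments lengthen to their adult size over the following weeks. Rods burn much of their glucose through glycolysis, keep most of their mitochondria in the inner segment next to the outer segment, and signal to bipolar cells through a single ribbon synapse.

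The libraries did not differ by age alone. On a principal component plot of log2(CPM + 1), the first component (64.0% of the variance) placed P14 replicates 1 and 2 at -42.2 and -31.9, P14 replicate 3 at -95.002, P28 replicate 1 at 22.4 and the other P28 libraries at 44.1 to 51.4. The second component (20.99%) placed P14 replicate 3 at 40.9 and P28 replicate 1 at 35.1, apart from the remaining libraries at -50.0 to 6.73. Across the 15289 genes, P14 replicates 1 and 2 correlated at 0.988 with each other and at 0.953 and 0.936 with replicate 3, while the P28 libraries correlated at 0.981 to 0.995. Genes with short transcripts were low in P14 replicate 3: with genes in 4 bins of equal number by length, its median log2 difference from the other P14 libraries was -0.57 in the bin of the shortest transcripts (204 to 2381 nucleotides) and 0.30 in the bin of the longest. In the same bins the P28 minus P14 median was 0.28 and -0.46 with all 7 libraries, and 0.08 and -0.19 without P14 replicate 3. The summed CPM per column was 1435384, 1346668 and 1022875 at P14 and 1928256 to 2277242 at P28, with no overlap (two-sided exact permutation p = 0.0286, the smallest that 3 against 4 libraries allow). The read counts behind these values are unknown, so depth could not be compared. The scaling between libraries matters for every direction below: the median difference over all genes was -0.07 as deposited, and moved by 0.15 under quantile normalization, 0.13 under median-of-ratios scaling and -0.62 when all columns were scaled to equal sums.

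With all 7 libraries, 516 of 12023 genes tested were called higher at P28 (4.29%) and 1999 were called lower (16.6%). Of the genes tested, 1383 did not reach 1 CPM in 3 P28 libraries, and 885 of the 1999 lower calls were among them. These genes passed the filter through P14 libraries, so a lower value at P28 was largely built in. Of the 10640 genes that reached it at P28, 516 were called higher and 1114 lower (10.5%). Higher genes made up 20.5% of the calls as deposited, 44.6% under quantile normalization (538 higher, 668 lower), 32.4% under median-of-ratios scaling (830 and 1728) and 1.47% with equal column sums (56 and 3742). Without P14 replicate 3, 280 of 11313 genes were called higher (2.48%) and 1205 lower (10.7%). Of the 516 higher genes, 232 were called in both fits and 284 were tested but not called without that library. Of the 1999 lower genes, 1113 were called in both and 360 were tested but not called. The other 526 no longer passed the filter of at least 1 CPM in 3 libraries once P14 replicate 3 was left out. No gene was called in opposite directions. All 4 P28 libraries lay above all 3 P14 libraries for 2395 genes (19.9%) and below them for 2828 (23.5%). In bulk sorted cells, fewer cells of a type and less RNA per cell cannot be told apart.

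The largest rise among genes that met the naming rule (called with and without P14 replicate 3, no overlap between the ages, a mean of at least 10 CPM at one age, predicted genes and pseudogenes left out) and had any P14 signal was that of Guca1a. It encodes GCAP1, the calcium sensor that switches on guanylate cyclase when calcium falls in light, and lies on chromosome 17, 47394558 to 47400584, minus strand (GRCm38). Its values were 141.5, 170.9 and 183.8 CPM at P14 and 1508, 2295, 2118 and 1831 CPM at P28. All 4 P28 libraries were far above all P14 libraries, the 3 P14 libraries were close together, and the log2 difference was 3.53 ± 0.20 (SE, adjusted p = 0.000212). Hk2 (chromosome 6, 82725025 to 82774454, minus strand), a hexokinase that performs the first step of glycolysis, had 168.4, 168.6 and 243.4 CPM at P14 and 1559.9, 1906, 1848 and 1560.4 CPM at P28, a difference of 3.16 ± 0.20 (SE, adjusted p = 0.000331). Cd59a (chromosome 2, 104095801 to 104115354, plus strand), a membrane-anchored inhibitor of the complement attack complex, had 4.94, 4.67 and 5.33 CPM at P14 and 56.9, 70.5, 66.3 and 59.1 CPM at P28. The P14 libraries of Cd59a were nearly equal, and the difference was 3.42 ± 0.18 (SE, adjusted p = 0.000118). Mef2c (chromosome 13, 83504034 to 83667080, plus strand), a MADS-box transcription factor of neurons and muscle, had 22.6, 22.3 and 69.6 CPM at P14 and 415.4, 263.7, 240.9 and 227.8 CPM at P28. P14 replicate 3 lay above the other P14 libraries and below every P28 library. The log2 difference of Mef2c was 3.04 ± 0.41 with all libraries and 3.58 without that replicate.

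Hdc, which makes histamine from histidine, rose by a log2 difference of 3.41 ± 0.39, from 4.68 ± 3.76 (SD, n = 3) to 52.1 ± 8.26 CPM (SD, n = 4). Ttll11, an enzyme that adds glutamate chains to tubulin, rose by 3.06 ± 0.32. Bst1, a membrane-anchored enzyme that consumes NAD, rose by 2.93 ± 0.32, Traf3ip3, an adaptor that binds the signalling protein TRAF3, by 2.73 ± 0.18, and Sgk1, a kinase induced by serum and glucocorticoids, by 2.61 ± 0.46. P14 replicate 3 was the highest P14 library for Hdc, Ttll11, Mef2c, Bst1 and Sgk1, and the differences of these 5 genes were larger without it (3.92, 3.49, 3.58, 3.26 and 3.16). A second gene carrying the symbol Nadk2 (ENSMUSG00000111527.1) was listed at 0 in all 3 P14 libraries and at 5.94, 35.8, 21.6 and 5.61 CPM at P28. It shares its symbol with another entry, and how reads were divided between such copies is not known, so no fold is given.

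Egr1, an immediate early transcription factor induced by neuronal activity and growth signals, fell the most among genes that met the same rule. Psd2 (-4.68) had a larger fall, and Grm7 (-3.15) and Sned1 (-3.08) larger ones than several genes named here, but these 3, named after their values were seen, did not pass the filter of 1 CPM in 3 libraries without P14 replicate 3. The Egr1 values were 55.955, 53.2 and 46.3 CPM at P14 and 2.97, 3.23, 3.12 and 2.59 CPM at P28, a log2 difference of -3.73 ± 0.19 (SE, adjusted p = 0.000118), with tight values in both groups. Reln (chromosome 5, 21884454 to 22344702, minus strand), a secreted protein that guides neuron positioning, had 54.6, 53.1 and 46.2 CPM at P14 and 2.3, 9.08, 3.46 and 1.44 CPM at P28, a difference of -3.58 ± 0.43 (SE, adjusted p = 0.00112). The P28 libraries of Reln spread over a wide range but all stayed far below P14. Duxbl2, a double homeobox gene with near-identical copies that make its reads uncertain, had 51.5, 51.3 and 55.2 CPM at P14 and 3.47, 4.99, 4.38 and 6.92 CPM at P28, a difference of -3.21 ± 0.23. Col9a1, a collagen chain, fell by 3.29 ± 0.40. Marcksl1, an actin-regulating protein of growing neurites, had 21.6, 26.5 and 6.29 CPM at P14 and 0.701, 1.38, 1.61 and 1.41 CPM at P28, and fell by 2.88 ± 0.44. Tubb2a, a neuronal beta-tubulin with a close paralog, had a difference of -3.01 ± 0.40, Cplx2, a complexin of conventional synapses, of -2.99 ± 0.41, Calb2, the calretinin of amacrine and ganglion cells, of -3.03 ± 0.35, and Adgrl3, a latrophilin adhesion receptor, of -2.94 ± 0.39. For Col9a1, Calb2, Tubb2a, Cplx2 and Marcksl1, P14 replicate 3 was the lowest of the P14 libraries, and the fall was larger without it (-3.75, -3.49, -3.48, -3.54 and -3.47). For the olfactory receptor gene Olfr1459 the same library was the highest: the values were 20.4, 16.4 and 144.04 CPM at P14 and 4.13, 4.59, 3.42 and 4.98 CPM at P28, and the difference went from -2.85 ± 0.65 to -1.88 without it.

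**Figure D1:**
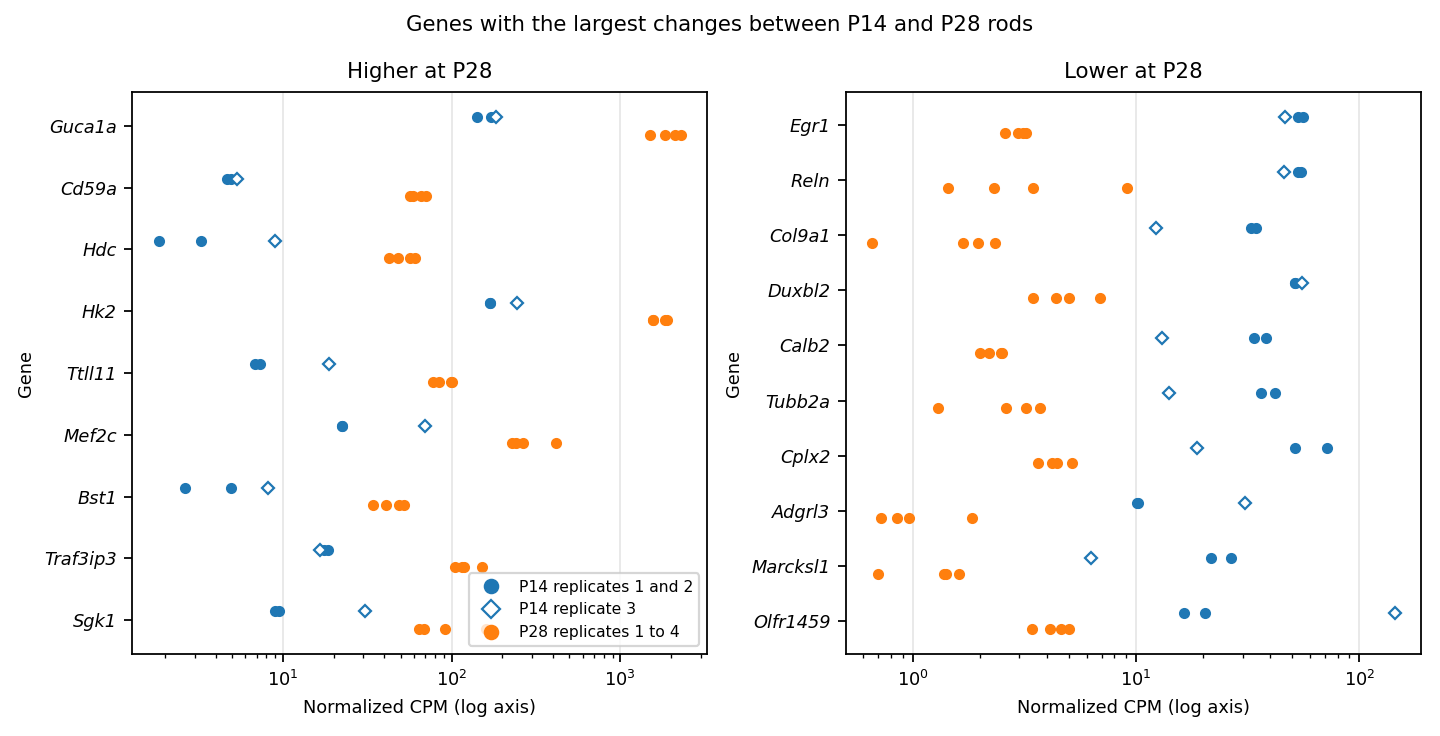
Normalized CPM (log axis) of the 9 genes with the largest rise among those above 0 at P14 and the 10 genes with the largest fall, chosen by the naming rule, 1 point per library. Blue points are P14 libraries (open diamond, replicate 3) and orange points P28 libraries; no P14 point overlaps a P28 point of the same gene, Guca1a goes from at most 183.8 to at least 1508 CPM, and the open diamond lies away from the other P14 points for several genes such as Marcksl1 and Olfr1459.

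In the phototransduction list, 11 genes rose and none fell. Of 21 members described here, all tested, 11 were called higher by limma, against 4.29% of all genes, and 0 lower (0 also at an unadjusted p under 0.05). All P28 libraries lay above all P14 libraries for 17 of the 21, against 19.9% of all genes. The median log2 difference was 1.10, against -0.07 over all genes. Without P14 replicate 3 the counts were 10 and 0 with a median of 0.94. The summed CPM of the list was 120613, 123572 and 60428 CPM at P14 and 212021, 271458, 258601 and 238011 CPM at P28, a ratio of means of 2.41 with all libraries and 2.01 without P14 replicate 3. The list's median relative to all genes was 0.16 under quantile normalization (2 called higher), 1.17 under median-of-ratios scaling (14) and 1.06 with equal column sums (4).

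The transducin alpha subunit Gnat1 (chromosome 9, 107674474 to 107679712, minus strand) had 23328, 27106 and 10856 CPM at P14 and 58361, 72969.9, 74643 and 70437 CPM at P28, a difference of 1.86 ± 0.46 (SE, adjusted p = 0.0169). In CPM, though not on the log2 scale, every P28 library of Gnat1 exceeded every P14 library by more than the P14 libraries differed. Its beta subunit Gnb1 differed by 1.48 ± 0.43 and was called, and its gamma subunit Gngt1 by 0.97 ± 0.46 and was not (adjusted p = 0.125). Of the phosphodiesterase, the catalytic subunits Pde6a (1.78 ± 0.32) and Pde6b (1.24 ± 0.26) were called. Pde6b had 5346, 5506 and 4069 CPM at P14 and 10279, 12584, 12374 and 11564 CPM at P28, with no overlap. The inhibitory subunit Pde6g had a difference of 1.10 ± 0.50 (adjusted p = 0.114) and was not called. Neither subunit of the channel that closes in light was called, with 0.86 ± 0.22 for Cnga1 and 1.09 ± 0.41 for Cngb1. The exchanger Slc24a1, which removes calcium from the outer segment, was called at 1.53 ± 0.33.

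Calcium feedback involves guanylate cyclases and their calcium-sensing activators. The cyclases Gucy2e and Gucy2f differed by 0.88 ± 0.18 and 0.84 ± 0.21, below the 2-fold limit. Their activators Guca1a and Guca1b were both called. Guca1b, which encodes GCAP2, had 1639, 2114 and 892.5 CPM at P14 and 3844, 7512, 7266 and 6303 CPM at P28, a difference of 2.05 ± 0.37 (SE, adjusted p = 0.00433). Among the genes that end the response, Rgs9 (1.17 ± 0.20) and its membrane anchor Rgs9bp (1.02 ± 0.23), which speed the shutoff of transducin, were called, and their partner Gnb5 (0.94 ± 0.21) was not. The receptor kinase Grk1 differed by 0.38 ± 0.29 (adjusted p = 0.313), arrestin Sag by 0.74 ± 0.39 (adjusted p = 0.165) and recoverin Rcvrn by 0.54 ± 0.49 (adjusted p = 0.397), none of them called. Sag had 16653, 16825 and 7602 CPM at P14 and 18468, 25057, 22601 and 20459.8 CPM at P28, with P14 replicate 3 well under the other libraries. Phosducin Pdc, which binds transducin subunits, was called at 1.27 ± 0.31. The lipid-binding carrier Unc119 was called at 1.22 ± 0.38 with all libraries and not without P14 replicate 3 (0.78).

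Promoter sequence was read for the genes with an entry in the RefSeq table (GRCm38.p6, 250 bases before to 50 after the start of transcription). The letters TAATCC, the core bound by the photoreceptor factor CRX, were searched on both strands and were present in 8 of 15 phototransduction promoters (53.3%), against 530 of 9205 promoters of genes tested (5.76%), 6.25% of those called higher and 4.94% of those called lower. The NRL-type letters TGCTGA were present in 26.7% of the phototransduction promoters and 14.7% of all, the E-box CACGTG in 0 of 15 and 10.3%, and AGGTCA, a nuclear receptor half-site, in 40% and 11.7%. In the glycolysis list described next, TAATCC was present in 2 of 23 promoters (8.7%). These shares describe the letters in this window and show no binding. Below are the promoters of Guca1a, of a cyclase in the same feedback loop, of Hk2 and of a cone gene that fell, each 5′ to 3′ with TAATCC or its reverse complement in capitals. The capitals occur once each in Guca1a, Gucy2e and Gnat2 and not in this window of Hk2.
Guca1a (chr17:47400557-47400856, minus strand): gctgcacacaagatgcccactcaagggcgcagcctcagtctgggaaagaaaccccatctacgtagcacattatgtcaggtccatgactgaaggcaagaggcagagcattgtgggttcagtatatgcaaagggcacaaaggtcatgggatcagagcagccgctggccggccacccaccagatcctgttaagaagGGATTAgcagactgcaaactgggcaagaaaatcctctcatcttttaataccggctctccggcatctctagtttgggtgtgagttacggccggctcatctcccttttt
Gucy2e (chr11:69236973-69237272, minus strand): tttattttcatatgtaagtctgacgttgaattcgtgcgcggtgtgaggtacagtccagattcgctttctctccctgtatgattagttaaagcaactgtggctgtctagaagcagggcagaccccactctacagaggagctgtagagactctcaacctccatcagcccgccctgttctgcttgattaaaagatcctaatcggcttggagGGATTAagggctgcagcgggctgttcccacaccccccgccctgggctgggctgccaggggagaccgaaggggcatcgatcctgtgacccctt
Hk2 (chr6:82774405-82774704, minus strand): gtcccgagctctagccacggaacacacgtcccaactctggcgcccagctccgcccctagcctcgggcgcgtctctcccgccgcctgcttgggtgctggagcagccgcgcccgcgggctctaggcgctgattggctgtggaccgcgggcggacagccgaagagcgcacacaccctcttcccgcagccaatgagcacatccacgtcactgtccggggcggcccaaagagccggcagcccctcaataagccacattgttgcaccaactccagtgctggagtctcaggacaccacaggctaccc
Gnat2 (chr3:108092816-108093115, plus strand): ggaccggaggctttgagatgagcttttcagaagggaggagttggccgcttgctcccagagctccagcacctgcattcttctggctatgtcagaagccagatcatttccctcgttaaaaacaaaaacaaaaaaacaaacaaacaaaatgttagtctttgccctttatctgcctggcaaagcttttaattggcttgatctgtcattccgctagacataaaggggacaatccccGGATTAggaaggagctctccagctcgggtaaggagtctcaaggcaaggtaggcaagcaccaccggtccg

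Of 20 tested genes that build the outer segment, 6 were called higher and 1 lower, against 4.29% and 16.6% of all genes. The median of the list was 0.81. Without P14 replicate 3, 1 remained higher (Prph2) and 1 lower, and the median was 0.37. Relative to all genes the median changed sign under quantile normalization (-0.20), and was 0.78 with equal column sums, where 0 were called higher and 4 lower. Prph2, the tetraspanin of the disc rim, had 8747, 10566 and 4938 CPM at P14 and 15447, 23605, 23319 and 21081 CPM at P28, with a difference of 1.42 ± 0.37 (SE, adjusted p = 0.02). Its partner Rom1 differed by 1.51 ± 0.46, Arl3, a small GTPase that releases lipidated cargo into the outer segment, by 1.41 ± 0.44, and Impg1, a proteoglycan of the matrix around photoreceptors, by 1.08 ± 0.28. Rpgrip1, which anchors RPGR in the connecting cilium, was the gene called lower, with 1415, 1067 and 5125 CPM at P14 and 708.6, 513.8, 544.9 and 589.3 CPM at P28. P14 replicate 3 held several times the level of the other libraries for Rpgrip1, and the difference went from -1.76 ± 0.48 to -1.07 without it. Rp2 and Abca4 were the other members called higher. The axonemal gene Rp1 and the other 12 members were not called.

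Among 17 photoreceptor transcription factors tested, 2 were called higher and 3 lower, near the 16.6% of all genes called lower, with a median of 0.01 (2 and 1 of 16 without P14 replicate 3). Besides Mef2c, the nuclear receptor Esrrb rose, with 534.6, 554.9 and 533.3 CPM at P14 and 1269.9, 1510.4, 1537 and 1523 CPM at P28, the P14 libraries within a narrow band, and a difference of 1.43 ± 0.17 (SE, adjusted p = 0.00103). Prdm1, which keeps young photoreceptors from becoming bipolar cells, fell, with 43.2, 27.5 and 47.5 CPM at P14 and 18.7, 3.43, 2.42 and 3.92 CPM at P28 and a difference of -2.67 ± 0.56 (SE, adjusted p = 0.00855). Rxrg, a nuclear receptor of cones, was at about 2 CPM or less throughout (1.84, 1.78 and 2.11 CPM at P14 and 0.113, 0.313, 0.62 and 0.213 CPM at P28) and had a difference of -1.16 ± 0.19. It passed the filter through the 3 P14 libraries alone, was not tested without P14 replicate 3, and was not called under quantile normalization (-0.40, adjusted p = 0.233). Neurod1, a proneural factor that photoreceptors retain, had a difference of -1.11 ± 0.31 with all libraries and -0.90 (not called) without P14 replicate 3. The factors that set rod identity were not called. Nrl had 5874, 6824 and 1943 CPM at P14 and 7587, 11843, 11269 and 9743 CPM at P28, a difference of 1.22 ± 0.45 (SE, adjusted p = 0.0645), with all P28 libraries above all P14 libraries. Crx had 2568, 2418 and 2064 CPM at P14 and 3132, 2983, 2885 and 2768 CPM at P28 and differed by 0.33 ± 0.20 (SE, adjusted p = 0.217). Nr2e3, which represses cone genes, had 2289, 2527 and 1022 CPM at P14 and 1843, 2665, 2602 and 2399 CPM at P28, overlapping between the ages, and differed by 0.38 ± 0.34 (SE, adjusted p = 0.386). Over the 7 rod markers Nrl, Gnat1, Pde6a, Pde6b, Cnga1, Sag and Nr2e3, the lowest value in any of the 7 libraries was 1022 CPM, of Nr2e3 in P14 replicate 3. Each library thus held abundant rod transcripts. The cells were sorted on an Nrl reporter, and such levels in bulk cannot show that other cells were absent.

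**Figure D2:**
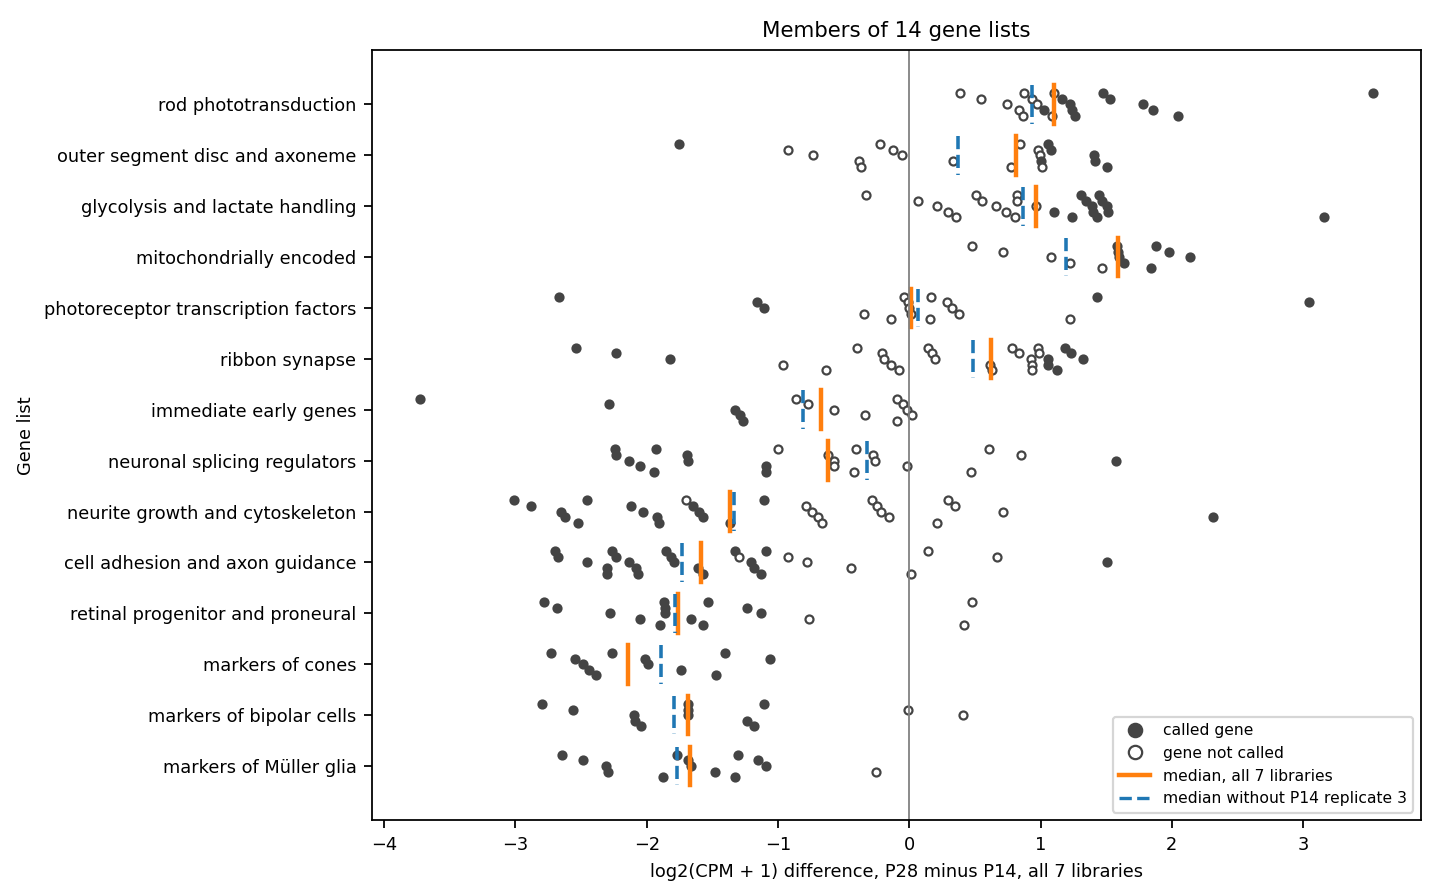
Log2(CPM + 1) difference, P28 minus P14, of each tested member of 14 gene lists with all 7 libraries; filled points were called and open points were not. The orange line is the list's median with all libraries and the dashed blue line the median without P14 replicate 3; the 2 lie at 1.10 and 0.94 for phototransduction and at -2.14 and -1.89 for cone markers, and the vertical grey line marks no difference.

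Of the glycolysis genes, 12 rose and none fell. Of 25 members tested, 12 were called higher by limma, against 4.29% of all genes, and 0 lower (0 also at an unadjusted p under 0.05). The median was 0.97, and 16 had all P28 libraries above all P14 libraries, against 19.9% of all genes. Without P14 replicate 3, 9 were called higher and 0 lower (median 0.86). Under quantile normalization 3 were called higher and the median relative to all genes was 0.33. With equal column sums 1 was called higher, at a relative median of 0.93. Hk2 (above) exceeded the other members in size of change. Slc16a3, a lactate and proton transporter, had 15.5, 26.2 and 24.9 CPM at P14 and 51.971, 61.7, 70.4 and 72.6 CPM at P28, a difference of 1.51 ± 0.23 (SE, adjusted p = 0.00236). Pgam1, which converts phosphoglycerate, rose by 1.503 ± 0.35, and Gapdh by 1.46 ± 0.44. Gapdh had 5445, 5198 and 1633 CPM at P14 and 8089.7, 11950.0, 10723 and 9278 CPM at P28, so P14 replicate 3 was lowest by a wide margin, and the gene was not called without it (0.90). The other called members were Hk1, Pfkl, Aldoa, Aldoc, Tpi1, Eno1, Pkm and Bsg, from 1.10 (Aldoa) to 1.44 (Bsg, the partner protein of the monocarboxylate transporters). Lactate dehydrogenase A (Ldha) differed by 0.30 ± 0.31 and was not called.

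Of the transcripts of the mitochondrial genome, 8 rose and none fell. Of 13 tested, 8 were called higher and 0 lower, against 4.29% and 16.6% of all genes, with a median of 1.59. Without P14 replicate 3 the counts were 6 and 0, with a median of 1.19. Under quantile normalization 1 was called higher, at a median relative to all genes of 0.48, and with equal column sums 3, at 1.55. The list's summed CPM was 152425, 106693 and 40449 CPM at P14 and 220218, 245091, 194141 and 177048 CPM at P28. mt-Nd2, a subunit of complex I, had 4564, 2594 and 1903 CPM at P14 and 14844, 14689, 10892 and 10114 CPM at P28, a difference of 2.14 ± 0.35 (SE, adjusted p = 0.00317), and mt-Nd4l differed by 1.98 ± 0.47, mt-Cytb of complex III by 1.84 ± 0.48 and mt-Atp8 of ATP synthase by 1.88 ± 0.62. As a share of all CPM, the list took 10.6%, 7.92% and 3.95% in the P14 libraries and 11.4%, 10.8%, 9.10% and 8.95% in the P28 libraries, which overlap (two-sided exact permutation p = 0.171). Of the nuclear-encoded respiratory genes, 1 of 30 was called higher (Atp5a1, 1.04 ± 0.33) and 0 lower, and without P14 replicate 3 none was called. Their median went from 0.61 to 0.04 without P14 replicate 3, in which their median was -1.78 against the other P14 libraries. Of 22 genes of the citric acid cycle, 1 was called higher, Sucla2 at 1.17 ± 0.19, and 0 lower. In the repeat without P14 replicate 3, Sucla2 was below the 2-fold limit (0.99) and the count was 0 higher and 1 lower (Idh2, -1.08, named after its value was seen).

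In fatty acid and phospholipid synthesis, 2 of 22 were called higher and 5 lower, against 4.29% and 16.6% of all genes, and without P14 replicate 3 the counts were 1 and 3 of 21. These shares lie near those of all genes, and only the single members are described. Among the 18 members that reached 1 CPM in 3 P28 libraries, 3 were called lower. Adipor1, the adiponectin receptor that photoreceptors need to keep docosahexaenoic acid, had 1235, 1386 and 606 CPM at P14 and 2450.4, 3694, 3585 and 3273 CPM at P28, a difference of 1.66 ± 0.32 (SE, adjusted p = 0.00586), and Agpat3, which makes phosphatidic acid, differed by 1.24 ± 0.28 (0.97 and not called without P14 replicate 3). The elongases Elovl5, Elovl6 and Elovl1 differed by -2.15 ± 0.31, -1.81 ± 0.23 and -1.54 ± 0.45, all at low levels, and the acyl-CoA synthetase Acsl1 by -1.38 ± 0.22. The fifth called lower was Elovl7 (-1.15 ± 0.32), named after its value was seen. Elovl1 and Elovl7 were not called without P14 replicate 3. None of 17 cholesterol synthesis genes was called by limma in either direction (2 higher and 5 lower at an unadjusted p under 0.05). Hmgcs1 and Fdps, high in level among them, differed by 0.30 ± 0.19 and 0.73 ± 0.37. In the retinoid cycle, 0 of 12 were called higher and 2 lower, a share near that of all genes: Rdh10 (-2.03 ± 0.22), a retinol dehydrogenase, and Rlbp1 (-1.88 ± 0.31), the retinal-binding protein of Müller glia. All P28 libraries lay above all P14 libraries for 6 of the 12 and below them for 2, against 19.9% and 23.5% of all genes. The list's summed CPM was 16268, 16598 and 5990 CPM at P14 and 25317, 28359, 28309 and 27174 CPM at P28, with no overlap.

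At the ribbon synapse, 6 of 28 entries in the table were called higher and 3 lower, against 4.29% and 16.6% of all genes. Without P14 replicate 3, however, the counts were 0 and 1 of 27. Among the 27 entries that reached 1 CPM in 3 P28 libraries, 2 were called lower. Slc17a7, the transporter that fills vesicles with glutamate, had 3639.6, 4106 and 1425 CPM at P14 and 4771, 7980, 8219 and 7448 CPM at P28 and a difference of 1.33 ± 0.41 (SE, adjusted p = 0.0366). Sv2b, a vesicle protein, differed by 1.23 ± 0.28 and Cplx4, a complexin of ribbon synapses, by 1.18 ± 0.25. The remaining entries called higher were Vamp2 (1.13 ± 0.33) and, named after its values were seen, Cabp4, a calcium-binding regulator of the release channel, which the table lists under 2 identifiers with equal values (1.06 ± 0.22). With equal column sums, 0 were called higher and 6 lower. The members called lower were Nrxn3, a presynaptic adhesion protein, at -2.54 ± 0.32 and Rims1 at -2.23 ± 0.24, both low in CPM, and the third, named after its value was seen, was the active zone scaffold Bsn at -1.82 ± 0.48. Among potassium channels and ion pumps, 1 of 12 was called higher and 2 lower, against 4.29% and 16.6% of all genes. With so few calls, only the single members are described. Kcnj14, an inward rectifier channel, had 503.7, 597.6 and 427.2 CPM at P14 and 1710.1, 1923, 1929 and 1917 CPM at P28, a difference of 1.89 ± 0.19 (SE, adjusted p = 0.000734), and was called higher without P14 replicate 3 too. The pump subunit Atp1b1 (-2.57 ± 0.26) and the calcium pump Atp2b2 (-1.68 ± 0.22) were lower, from means of 31.8 and 6.44 CPM.

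Many markers of other retinal cells were called lower at P28, beside the groups of lowered genes that follow. All 12 cone markers tested were called lower (median -2.14), as were 11 of 13 bipolar markers (median -1.69), 12 of 14 amacrine, horizontal and ganglion cell markers (median -1.75), 13 of 14 Müller glia markers (median -1.67), 8 of 9 microglia and macrophage markers (median -1.24), 4 of 6 endothelial and pericyte markers and 3 of 6 pigment epithelium markers, and none of these was called higher. Without P14 replicate 3 the counts were 11 of 12, 9 of 11, 6 of 8, 11 of 12, 2 of 4, 4 of 6 and 4 of 6. Some members had passed the filter through P14 libraries, where they were high, so that a lower value at P28 was built in for them: 3 bipolar, 7 amacrine, horizontal and ganglion cell, 2 Müller, 6 microglia and 3 pigment epithelium markers did not reach 1 CPM in 3 P28 libraries. Of the members that did, 12 of 12 cone, 8 of 10 bipolar, 5 of 7 amacrine, horizontal and ganglion cell, 11 of 12 Müller, 2 of 3 microglia, 4 of 6 vessel and 1 of 3 pigment epithelium markers were called lower, against 10.5% of all genes that reached it. Relative to all genes, the medians of the cone, bipolar and Müller lists were -1.004 or lower under each of the 4 other scalings tried. Quantile normalization lowered the counts to 10 of 12 cone, 5 of 13 bipolar, 6 of 14 amacrine, horizontal and ganglion cell, 9 of 14 Müller, 1 of 9 microglia, 2 of 7 vessel and 0 of 6 pigment epithelium markers. Relative medians under quantile normalization were -0.97 (amacrine, horizontal and ganglion cells), -0.57 (microglia), -0.88 (vessels) and -0.12 (pigment epithelium). Cone markers summed to 627.4, 692.6 and 845.3 CPM at P14 and 154.7, 201.7, 196.2 and 182.7 CPM at P28, with no overlap. Müller markers summed to 1068, 1082 and 951.3 CPM at P14 and 247.04, 486, 514.1 and 419.6 CPM at P28. Amacrine, horizontal and ganglion cell markers summed to 220.6, 216.7 and 139.1 CPM at P14 and 57.7, 74.2, 70.9 and 76.6 CPM at P28. Each of these 3 differences had a two-sided exact permutation p of 0.0286, the smallest possible, or 0.0473 after adjustment over the single values tested. Bipolar markers summed to 596.01 to 734.5 CPM at P14 and 569.1 to 757.98 CPM at P28, which overlap. The largest part of that sum was Otx2, which rods also express (means of 327.7 and 325.7 CPM), and the sums overlapped without it too.

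Among single markers, the cone phosphodiesterase subunit Pde6h had 90.9, 126.5 and 144.97 CPM at P14 and 11.4, 27.1, 30.3 and 17.985 CPM at P28, a difference of -2.49 ± 0.33 (SE, adjusted p = 0.00157). The cone transducin alpha subunit Gnat2, whose promoter is printed above, differed by -1.74 ± 0.22, the gamma subunit Gngt2 by -2.55 ± 0.28, Ccdc136 by -2.73 ± 0.24 and the channel subunit Kcne2 by -2.44 ± 0.23. The bipolar genes Grm6, which ON bipolar cells use to sense glutamate, and Isl1 differed by -2.56 ± 0.29 and -2.80 ± 0.33, the inhibitory neuron gene Gad1 by -2.71 ± 0.30, the ganglion cell gene Thy1 by -2.68 ± 0.23, and the Müller genes Gpr37, Apoe, Vim and Slc1a3 by -2.65 to -2.30. Of the vessel genes, Kdr had 52.3, 47.3 and 25.1 CPM at P14 and 4.00, 7.03, 9.19 and 5.49 CPM at P28. Pecam1, the vessel marker with the highest mean at P28, went the other way (means of 8.62 CPM at P14 and 19.3 CPM at P28). Of the 6 vessel markers tested, 1 had a positive log2 difference. No cone marker had a mean under 1 CPM at P28, while 8 of 15 amacrine, horizontal and ganglion markers, 11 of 14 microglia markers and 7 of 13 vessel markers in the table did (1, 1 and 4 at P14). In the astrocyte list, Gfap and Pdgfra were lower and Aldoc, which is also a glycolytic gene, was higher at 1.39 ± 0.17. Of the 4 astrocyte markers tested, 3 did not reach 1 CPM in 3 P28 libraries, Gfap and Pdgfra among them. Both had passed the filter through P14 libraries, where they were high, so a lower value at P28 was built in. Under quantile normalization Pdgfra was called lower (-1.22) and Gfap was not called (-0.27, limma adjusted p = 0.369). The share of the fall in markers of other retinal cells in the changes of the lists below was not tested.

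**Figure D3:**
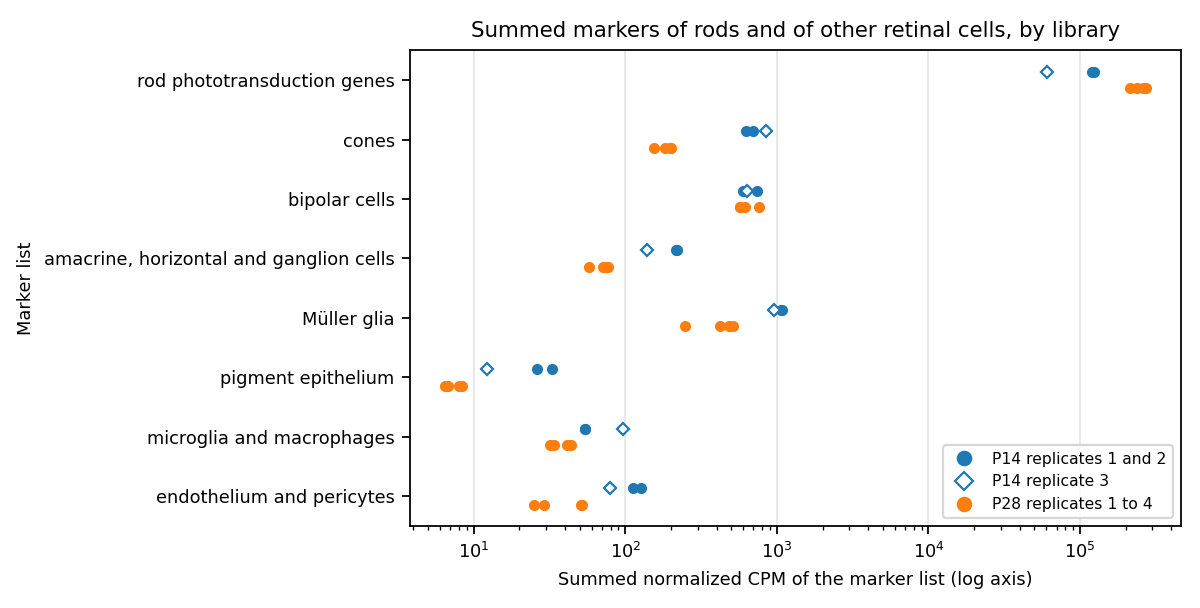
Summed normalized CPM (log axis) of phototransduction genes and of 7 marker lists of other retinal cells, 1 point per library, blue for P14 (open diamond, replicate 3) and orange for P28. Phototransduction sums are higher in every P28 library (212021 to 271458 CPM), cone and Müller sums are lower in every P28 library, and bipolar sums overlap.

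In the list of neurite growth and the cytoskeleton, 15 genes fell. Of 29 tested, 15 were called lower, against 16.6% of all genes, and 1 higher, with a median of -1.36 (19 lower and 1 higher of 28 without P14 replicate 3). Besides Tubb2a and Marcksl1, the neurofilament Nefm differed by -2.65 ± 0.29 and the microtubule regulator Stmn2 by -2.63 ± 0.54. Nefm had 27.7, 17.5 and 11.3 CPM at P14 and 2.00, 2.02, 2.00 and 1.88 CPM at P28, and both genes are abundant in ganglion and amacrine cells. Dclk1, a kinase that binds microtubules, went the other way, with 42.6, 42.2 and 59.1 CPM at P14 and 277.5, 245.3, 228.9 and 213.4 CPM at P28, no overlap and a difference of 2.32 ± 0.18 (SE, adjusted p = 0.000596). In cell adhesion and axon guidance, 20 of 28 were called lower, against 16.6% of all genes, and 1 higher, with a median of -1.59. Without P14 replicate 3 the counts were 12 and 1 of 21. Unc5d, a netrin receptor, differed by -2.70 ± 0.27, the protocadherin Pcdh9 by -2.68 ± 0.22, Efnb2 by -2.46 ± 0.21 and the guidance ligand Slit2 by -2.30 ± 0.38. Ncam1 was the exception, with 522.2, 431.9 and 253.7 CPM at P14 and 1012, 1139.8, 1175 and 1076 CPM at P28 and a difference of 1.51 ± 0.25 (SE, adjusted p = 0.0033). Among members that reached 1 CPM in 3 P28 libraries, 13 of 27 neurite and 11 of 17 adhesion genes were called lower. The other 2 neurite and 11 adhesion genes passed the filter through P14 libraries, so a lower value at P28 was largely built in. Of these, 2 neurite and 9 adhesion genes were called lower. Relative to all genes, the medians of these lists stayed between -1.60 and -1.03 under the scalings tried. These medians include the members with a built-in fall, so they do not show its size in the others.

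Of the progenitor and proneural factors, 13 of 16 tested were called lower, against 16.6% of all genes, and none higher, with a median of -1.76. Of the 12 that reached 1 CPM in 3 P28 libraries, 9 were called lower. Without P14 replicate 3, 11 of 13 were called lower, and under quantile normalization 7 were lower and 1 higher. Neurod4 had 51.027, 41.8 and 29.7 CPM at P14 and 3.8, 5.73, 4.77 and 5.66 CPM at P28, a difference of -2.78 ± 0.25 (SE, adjusted p = 0.000654). Pax6, which amacrine cells keep in the adult, differed by -2.69 ± 0.34, and Six3 by -2.28 ± 0.29. Of the neuronal splicing regulators, 10 of 23 were called lower and 1 higher (7 and 1 of 19 without P14 replicate 3, and 6 lower under quantile normalization). For 4 of the 10 a lower value was built in, as they did not reach 1 CPM in 3 P28 libraries. Of the 18 members that did, 6 were called lower (33.3%), against 10.5% of all genes that reached it. Srrm4, the regulator of neuronal microexons, had 76.8, 61.978 and 87.2 CPM at P14 and 23.4, 12.8, 11.8 and 14.6 CPM at P28, a difference of -2.23 ± 0.26 (SE, adjusted p = 0.000997), and Elavl3, Elavl4 and Nova1 differed by -2.24 ± 0.18, -2.13 ± 0.21 and -2.05 ± 0.32. Khdrbs3, which encodes an RNA-binding protein of the STAR family, rose, with 118.02, 113.6 and 47.8 CPM at P14 and 252.1, 279.9, 269.9 and 235.1 CPM at P28 and a difference of 1.57 ± 0.30 (SE, adjusted p = 0.00608).

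Immediate early genes encode transcription factors and regulators switched on within minutes of a stimulus. Of 14 tested, 5 were called lower, against 16.6% of all genes, 9 were not called and none was called higher, with a median of -0.67 (4 lower without P14 replicate 3, when Btg2 was not called). Under quantile normalization 3 of 15 were called lower, at a median relative to all genes of -0.25, and 7 of the 15 lay above the median of all genes. Beside Egr1, Fos had 25.2, 23.8 and 45.6 CPM at P14 and 6.34, 5.22, 4.12 and 6.16 CPM at P28, a difference of -2.29 ± 0.27 (SE, adjusted p = 0.00108), Junb differed by -1.29 ± 0.25 and Btg2 by -1.33 ± 0.37. The fifth was Dusp1, named after its values were seen (-1.27 ± 0.23).

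Of 15 genes of DNA methylation, 2 were called higher and 2 lower, against 4.29% and 16.6% of all genes (1 and 1 without P14 replicate 3). Dnmt1, the maintenance methyltransferase, had 49.1, 54.1 and 64.9 CPM at P14 and 96.8, 122.9, 121.3 and 116.3 CPM at P28, a difference of 1.02 ± 0.17 (SE, adjusted p = 0.00354) that held without P14 replicate 3 (1.13). Mbd2, a reader of methylated DNA, differed by 1.00 ± 0.28. Tet1 and Tet2, which oxidize methylcytosine, differed by -1.23 ± 0.29 and -2.10 ± 0.63, and neither Mbd2 (0.63) nor Tet2 (-1.41) was called without that library. Of 31 histone modifiers, 2 were called higher and 5 lower, a share of lower calls near that of all genes (2 and 1 without P14 replicate 3). Among the 29 that reached 1 CPM in 3 P28 libraries, 3 were called lower. The Polycomb subunit Suz12 had 551.6, 350.4 and 431.3 CPM at P14 and 1154, 1106, 1116 and 983.4 CPM at P28, a difference of 1.31 ± 0.20 (SE, adjusted p = 0.00229), and the deacetylase Hdac9 had 61.2, 61.1 and 134.3 CPM at P14 and 222.9, 211.3, 199.1 and 198.7 CPM at P28, a difference of 1.37 ± 0.28 (SE, adjusted p = 0.00724). Sirt1, Kdm6a, Hdac7 and Cbx2 were lower, at -1.26 ± 0.40, -1.22 ± 0.35, -1.45 ± 0.33 and -1.05 ± 0.28, and of these 4 Hdac7 alone was also called without P14 replicate 3. The fifth was Ezh2, the Polycomb methyltransferase, named after its value was seen (-1.04 ± 0.35), and not called without that library. In the list of lamina, architecture and linker histone genes, 2 of 24 were higher and 0 lower. Hmgb2, a chromatin protein that bends DNA, had 50.8, 52.8 and 29.6 CPM at P14 and 151.2, 173.4, 179.2 and 139.7 CPM at P28, a difference of 1.87 ± 0.23 (SE, adjusted p = 0.00116). The linker histone gene Hist1h1e was the other higher member (1.31 ± 0.43), at a P14 mean of 2.83 CPM. Hist1h1e was not called without P14 replicate 3, and 1 gene of the list was called lower (Hmgn2, -1.21, named after its value was seen).

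Survival and stress genes were called in single members. In intrinsic apoptosis, 2 of 19 were higher and 1 lower: the caspase inhibitor Xiap, with 1911, 1486 and 1222 CPM at P14 and 4296, 4137, 4129 and 3945 CPM at P28 and a difference of 1.45 ± 0.22 (SE, adjusted p = 0.00248), and Bcl2l2 (1.29 ± 0.38) were higher, and Bmf (-1.22 ± 0.20) was lower. In autophagy, 3 of 21 were higher and 0 lower, also without P14 replicate 3: the mitophagy receptor Bnip3 with 48.1, 54.7 and 51.1 CPM at P14 and 127.05, 137.9, 134 and 128.2 CPM at P28 (1.35 ± 0.14), Ctsb (1.43 ± 0.32) and Gabarapl1 (1.43 ± 0.32). Among antioxidant genes, 1 of 21 was higher (Gclc, the rate-limiting enzyme of glutathione synthesis, 1.29 ± 0.15) and 2 lower (Cp, -2.13 ± 0.29, and Prdx6, -1.13 ± 0.25, both also glial genes). The unfolded protein list had 1 of 19 higher (Canx, 1.42 ± 0.40) and 1 lower (Dnajb9, -1.04 ± 0.33), the chaperones 0 and 1 of 16 (Cryab, -2.07 ± 0.28), the phosphocreatine and nucleotide kinases 2 and 1 of 10 (Ak1, 1.63 ± 0.43, Nme1, 1.46 ± 0.35, and the creatine transporter Slc6a8, -1.01 ± 0.25), and the cilium transport list 0 and 1 of 28 (Nphp4, -1.28 ± 0.31). The clock list had 0 and 1 of 19 (Bhlhe40, -1.77 ± 0.33), the cell cycle list 1 and 1 of 18 (Mcm3, 1.24 ± 0.27, and Cdk6, -1.77 ± 0.45) and the MHC and interferon list 0 and 1 of 7 (B2m, -1.60 ± 0.28). No ribosomal protein gene of 23 was called by limma in either direction (2 higher and 0 lower at an unadjusted p under 0.05). Their median went from 0.75 to 0.10 without P14 replicate 3, in which it was -2.02 against the other P14 libraries. With so few called members, most of these lists lie near the background of 4.29% higher and 16.6% lower, and nothing is read from their counts. In the repeat without P14 replicate 3, Bcl2l2, Canx, Dnajb9 and Cdk6 were not called.

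The step from P14 to P28 was then set against the step from P10 (n = 4) to P14. The steps share the P14 libraries, so their difference was tested in 1 contrast. Among 12974 genes, 23 had a higher difference in the later step (0.177%) and 146 a lower one (1.13%). Cd59a stood out among the 23, at 4.01, 3.07, 2.77 and 4.95 CPM at P10. Its P10 to P14 difference was 0.37 and its contrast between steps 3.05 ± 0.34 (SE, adjusted p = 0.00643). Macrod1, an enzyme that removes ADP-ribose, and Hmgn5, a nucleosome-binding protein, followed at 2.50 ± 0.42 and 2.33 ± 0.51. The lowest were Duxbl2 (-4.15 ± 0.58), Sned1, a matrix protein (-4.06 ± 0.63) and Reln (-3.84 ± 0.69). Sned1 was at 0.453, 0.731, 0.287 and 0 CPM at P28, under the filter of 1 CPM. It was tested through P10 and P14 libraries, where it was higher, so its low P28 values were built in. Reln was at 49.9, 46.3, 47.971 and 29.5 CPM at P10, near its P14 level, before the low P28 values. These counts were unstable: without P14 replicate 1 they were 1 and 12, without P14 replicate 2 they were 1 and 7, and without P28 replicate 1 they were 54 and 263. Within P10, replicate 4 stood apart in its share of mitochondrially encoded CPM (3.87%, against 12.9%, 19.1% and 11.8% in replicates 1, 2 and 3).

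Over the rod ages in the table, Guca1a was at 22.3 ± 4.71 CPM (SD, n = 4) at P10, 165.4 ± 21.7 at P14 and 1938 ± 344.5 at P28. Hk2 went through 52.6 ± 10.4, 193.5 ± 43.3 and 1718 ± 184.3 CPM at the same ages, and Mef2c through 7.94 ± 3.78, 38.2 ± 27.2 and 286.98 ± 86.9. Egr1 was at 274.99 ± 75.8 CPM at P6 (n = 3), 123.05 ± 41.1 at P10 and 51.8 ± 4.96 at P14, and Marcksl1 took a like course (205.3 ± 30.6, 67.9 ± 7.25 and 18.1 ± 10.5 CPM). Pde6h was at 80.9 ± 30.5, 106.2 ± 14.3 and 120.8 ± 27.5 CPM before its P28 level of 21.7 ± 8.6 CPM, and like Reln it had its highest mean of P6, P10, P14 and P28 at P14. These courses were not tested beyond the contrast above.

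**Figure D4:**
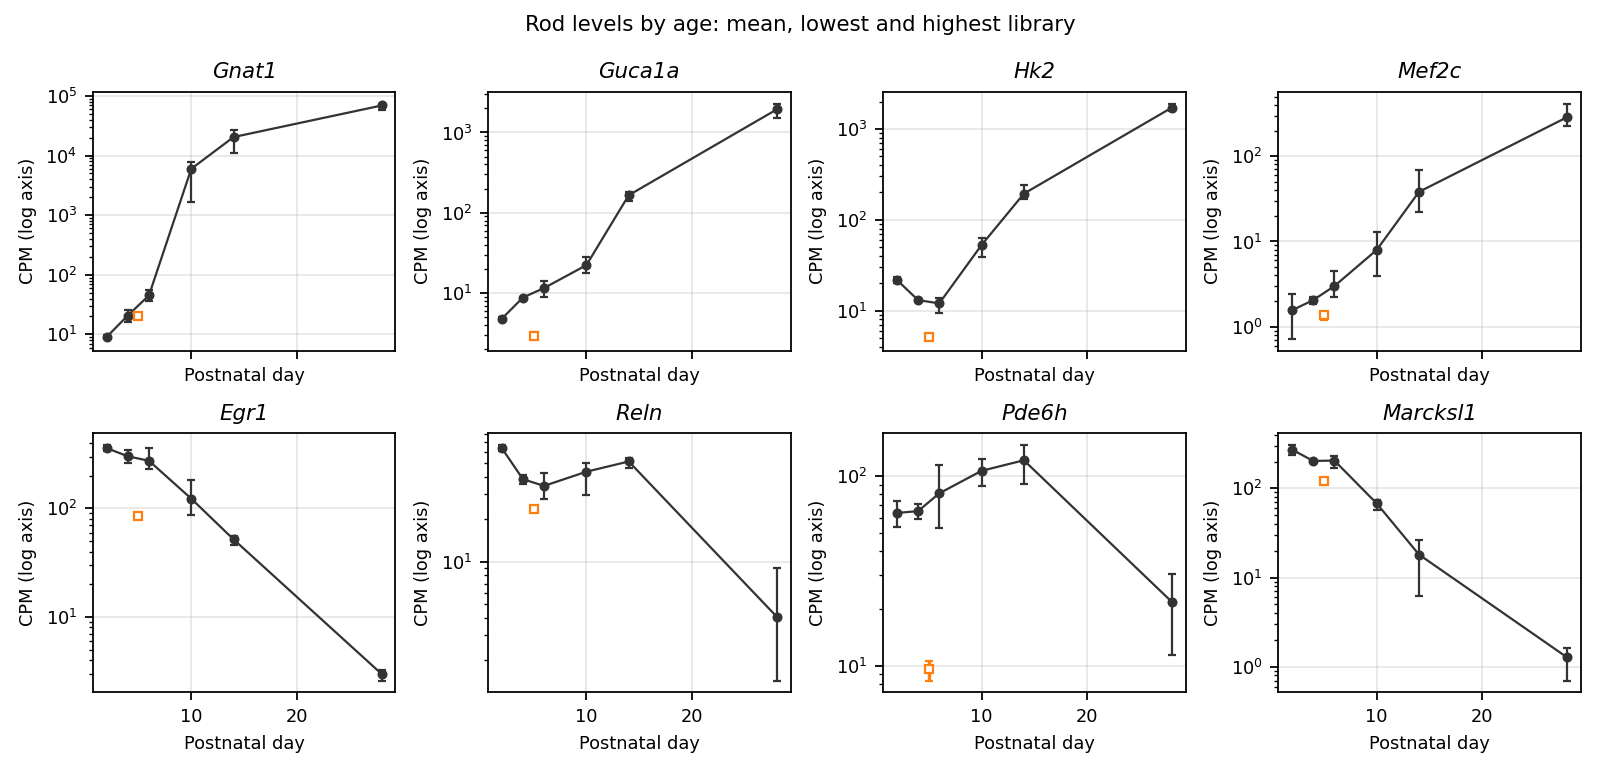
Normalized CPM (log axis) against postnatal day for 8 genes in rods, shown as the mean with bars from the lowest to the highest library. Black points joined by lines are the reused rods, P2 to P28; the open orange square is P5, sequenced with the cultured cells and not joined; Guca1a, Hk2 and Mef2c are highest at P28, Egr1 and Marcksl1 are lower at each joined age after P6, and Reln and Pde6h are low at P28 alone among the joined ages.

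P14 replicate 3 stood apart in named genes as well. Of the 12023 genes, 1325 (11.0%) were at least 2-fold above the mean of the other P14 libraries in it and 1558 (13.0%) at least 2-fold below, while replicates 1 and 2 were at least 2-fold apart for 287 (2.39%). Ccr9 had 13.4, 5.9 and 95.04 CPM at P14 and 9.38, 4.71, 4.3 and 2.25 CPM at P28, Zan 6.83, 5.14 and 56.8 CPM at P14 and 15.6, 9.69, 9.02 and 9.99 CPM at P28 and Ltbp1 10.037, 1.97 and 45.5 CPM at P14 and 8.6, 1.49, 1.64 and 3.56 CPM at P28. In the other direction, the respiratory chain gene Uqcr11 had 60.3, 80.3 and 6.98 CPM at P14 and 27.3, 64.9, 63.1 and 56.3 CPM at P28, Bola2 21.3, 27.967 and 1.78 CPM at P14 and 14.4, 31.3, 33.7 and 27.9 CPM at P28 and Rps27rt 11.7, 10.1 and 0 CPM at P14 and 54.8, 20.7, 11.9 and 14.955 CPM at P28. None of these 6 genes was called between the ages in either fit. The 4 sex-linked genes in the table summed to 62.2, 43.6 and 230.5 CPM at P14 and 142.6, 139.7, 149.96 and 137.2 CPM at P28. With all libraries none of the 4 was called, and without P14 replicate 3 all 4 were called higher at P28, Ddx3y at 1.01 and Eif2s3y at 1.85. The sexes of the animals are not in the labels, and the part of sex in the other results was not tested.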

How the data were processed

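RNA sequencing values of 7 libraries, rods of P14 (n = 3) and P28 (n = 4), were compared, with rods of P10 (n = 4) added for the difference between steps. The groups are those of the labels. The submitters' processing notes name kallisto for quantifying the reads, and no version, index, genome build or library strand is given in the sources used here, so overlapping antisense genes cannot be separated. In the deposited table the authors give a normalized CPM signal per gene. How they scaled it between libraries is not given in the sources. Columns have different sums and the values are not whole, so depth is unknown and no count model was fitted, although a CPM with equal sums had been planned for. The table has 15289 genes and all its value columns were mapped to samples (0 unused).

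The deposited values were used unchanged on the scale log2(CPM + 1), which understates the folds of low genes. Genes at 1 CPM or more in at least 3 libraries of a fit were tested with limma 3.58.1 in R 4.3.3, with moderated variances and a mean trend. Genes were called at an adjusted p (Benjamini-Hochberg, over all genes tested) under 0.05 where the change also reached 2-fold. Single values per library were compared with two-sided exact permutation tests. Alternatives covered the pseudocount, the filter, scaling, library weights, the variance prior, the fold threshold, a block on the replicate number and leaving out each library. Removal of a transcript length trend (loess, span 0.5) and a filter on 2 libraries without P14 replicate 3 were chosen after seeing the data. The procedure was tested on simulated data.

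The comparison, the 43 gene lists and the members named were chosen with earlier results of these data known, so lists are described by counts and medians, with no set test. The named genes are 7 anchors (Nrl, Crx, Nr2e3, Sag, Gnat1, Pde6b and Prph2), the 10 largest changes in each direction among genes called with and without P14 replicate 3, not overlapping between the ages and at a mean of at least 10 CPM at one age (predicted genes and pseudogenes left out), up to 4 called members of a list with up to 2 that moved the other way, the 2 highest in level where none was called, and the 3 highest and lowest for the difference between steps and for P14 replicate 3. Remaining members of the phototransduction, glycolysis and outer segment lists, and of the lists with few calls, were named after their values were seen. Some genes are not reported here and were left out of the lists. Coordinates and transcript lengths are from GENCODE M21 (GRCm38), matched by identifier for 99.1% of genes. Promoters are from RefSeq (GRCm38.p6).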

Additional observations from a re-analysis of the deposited data

Results flagged for a closer look

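Of 45 values per library tested within the 4 P28 libraries, 1 set a library apart from its group. The lower quartile of CPM over all genes was 0.638 in P28 replicate 2 and 0.589 to 0.592 in the other P28 libraries. About 1 in 20 such groups is set apart by chance, so 1 of 45 is no more than chance gives.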

How the results depend on the processing

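The counts of calls depend on many of the choices tried. With 516 genes higher and 1999 lower as reported, equal column sums gave 56 and 3742, and the same without mitochondrially encoded genes 53 and 3678. Quantile normalization gave 668 lower and median-of-ratios scaling 830 higher. A pseudocount of 5 gave 694 lower and a filter of 10 CPM 538 lower. A test against a fold of 1.5 gave 113 and 814, and a fold of at least 4 gave 30 and 324, by construction. Removing the length trend gave 1028 higher, and the filter on 2 libraries without P14 replicate 3 gave 282 higher. Leaving out 1 library at a time gave 280 to 763 higher and 1205 to 2212 lower; the lowest were without P14 replicate 3, and without P14 replicate 1 lower calls fell to 1208, without P28 replicate 2 or 3 higher calls to 331 and 341. For the difference between steps (23 higher, 146 lower) the same ranges were 1 to 54 and 7 to 263, quantile normalization gave 8 and 8 and equal column sums 9 higher. Where not stated above, the cause was not tested. No gene called in both an alternative and the reported fit changed direction. No named gene that was called reversed its direction under the alternatives run.

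With the replicate number as a block, 197 genes were higher and 1199 lower, and the difference between steps gave 0 and 0 by limma (1067 and 1718 at an unadjusted p under 0.05). Same-numbered libraries did not deviate together (correlations of -0.277, 0.396 and -0.380), so the numbers were not taken as pairing. Sequencing depth is unknown, so the precision of low values cannot be given.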
